A study of Xenopus laevis with 96 samples.

Results

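The genes described here encode proteins of fibroblast growth factor (FGF) signalling in whole embryos of the frog Xenopus laevis. They are the genes whose deposited symbol begins with fgf and a digit, fgfr, spry, spred, dusp, etv, flrt, frs2, frs3 or sef. Symbols were deposited for 16322 of the 31430 counted genes, and 53 genes met this rule. The other 15108 counted genes had no symbol and could not meet it. By role the 53 genes comprised 4 ligands, 6 receptors, 3 receptor adaptors, 5 FLRT membrane proteins and 10 Sprouty and Spred inhibitors. There were also 7 dual-specificity phosphatases grouped here by their action on the MAP kinase ERK, and 9 other dusp genes. The rest were 2 transcription factors of the PEA3 group, 4 other etv genes and 3 fgfr1op genes. The fgfr1op genes are named for human fusion genes and are not receptors. The rule itself works on names, but symbols were taken from the deposited log2 table, from which genes of low expression had been excluded. Membership therefore depended in part on measured levels. The ligands fgf3 and fgf4, the receptor fgfr1 and the PEA3 factor etv5 were not analysed here.

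Embryos of a wildtype strain came from 6 clutches (A to F), the eggs of 1 female each, and every clutch was divided over 4 groups. The labels name no agent for control embryos, and the others were kept for 2 h in 10 nM all-trans retinoic acid (RA), in 50 μM DEAB, an inhibitor of the retinaldehyde dehydrogenases that make RA, or in 0.5% ethanol. Treatment ran from stage 9.5 (late blastula) to stage 10.25 (early gastrula), and after washing 5 to 10 embryos were pooled per sample at 0, 1.5, 3 and 4.5 h, which gave 96 libraries, 6 in each of 16 groups. The labels give stage 11 or 11.5 at 1.5 h, 11.5 or 12 at 3 h, and 12 (clutches B and C) or 12.5 (clutches A, D, E and F) at 4.5 h. Stocks of RA and DEAB were in DMSO, whether control embryos received DMSO is not given in the sources used here, and all groups shared the same wildtype background.

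FGF ligands bind receptor tyrosine kinases at the cell surface, and adaptors such as Frs2 pass the signal through Ras, Raf and MEK to the MAP kinase ERK. ERK phosphorylates ETS factors of the PEA3 group, which switch on target genes. Several of those targets encode inhibitors of the same pathway, among them Sprouty and Spred proteins, which act upstream of ERK, and phosphatases such as Dusp6, which remove the activating phosphates from ERK. In the Xenopus gastrula, FGF signalling maintains the mesodermal gene tbxt, drives cdx and posterior hox genes, and works alongside RA in forming posterior structures.

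Library totals ranged from 5528562 to 15869722 counts with a median of 11691900. Levels are given as CPM, the counts of a gene scaled to a common library size (with factors by trimmed mean of M values) and not corrected for gene length, so that they are compared between samples and not between genes. A gene was called at a Benjamini-Hochberg adjusted p under 0.05 in edgeR's quasi-likelihood test over all genes, with clutch as a block. Markers of the germ layers and germ plasm of a gastrula were measured as 20 copies of 14 genes. They summed to 2500 to 4028 CPM in control embryos at 0 h and to 3082 to 3613 CPM at 4.5 h. The sum does not show each layer apart. Of genes listed for tissues taken to be absent from a gastrula, only the muscle genes actc1.L and ckm.S were measured. They summed to 5.63 to 15.4 CPM at 0 h and 10.8 to 64.9 CPM at 4.5 h. At 4.5 h against 0 h, edgeR called 1 of them higher and 1 lower, so the sum hides opposite changes. Of 5 tested RA response genes, all 5 rose with RA at 0 h, among them cyp26a1.L by 2.09 on the log2 scale, and 4 of 5 fell with DEAB. The study kept clutches by a qPCR test of RA response genes, so this check is not independent evidence.

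Over normal gastrulation most FGF signalling genes changed, in both directions. Against 0 h, 29 of 53 were called at 1.5 h (18 higher, 11 lower), where 48.3% of all 20295 genes tested were called (23.8% higher, 24.5% lower). At 3 h 42 were called (22 higher, 20 lower), against 74.6% of all genes (35.1% higher, 39.5% lower), and at 4.5 h 46 were called (22 higher, 24 lower), against 82.9% (39.6% higher, 43.2% lower). The members' shares were 54.7%, 79.2% and 86.8%, close to those of all genes, and their median log2 change at 4.5 h was -0.11, against -0.08 over all genes. In edgeR 28 genes were called at every later time, 17 higher and 11 lower each time, no gene was called in opposite directions at different times, and dusp1.L, dusp5.L, dusp11.S, dusp28.L and flrt1.S were called at none. Of these last genes, limma on the log2 values that the authors deposited called dusp11.S at 3 and 4.5 h and dusp28.L and flrt1.S at 4.5 h. The 3 time contrasts share the 0 h libraries. In whole embryos, fewer cells of a type and less RNA per cell cannot be told apart.

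**Figure D1:**
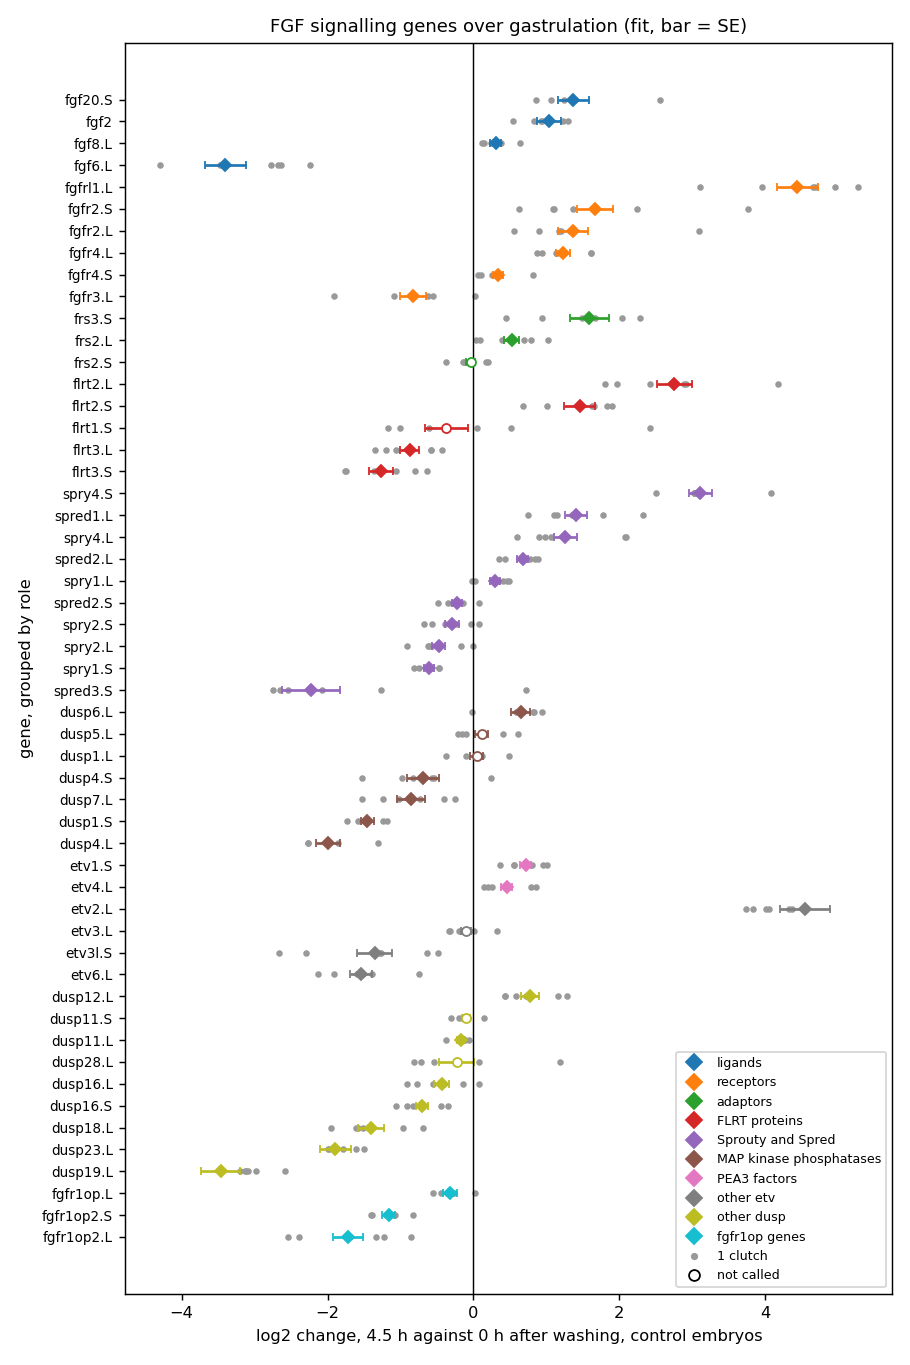
Change of each of the 53 genes in control embryos from 0 to 4.5 h, as the fitted log2 change on the horizontal axis with its standard error, coloured by role, with the within-clutch changes of 6 clutches as grey points. Open circles are genes not called. The role labelled MAP kinase phosphatases holds the 7 genes grouped by their action on ERK. etv2.L (4.55) and fgfrl1.L (4.44) lie farthest to the right, and dusp19.L (-3.47) and fgf6.L (-3.41) farthest to the left.

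Of the 4 ligand genes, 3 rose by 4.5 h and 1 fell, where 39.6% of all genes were higher and 43.2% lower. fgf20.S, a ligand of the FGF9 subfamily, had a level of 0.649, 2.97 and 3.997 CPM (lowest, median and highest clutch) at 0 h and 4.65, 7.07 and 8.53 CPM at 4.5 h, so that the 2 times did not overlap. Its log2 change was 1.37 (SE 0.22, adjusted p = 5.61e-06 in edgeR), and the rise was already called at 1.5 h. fgf2, of the FGF1 subfamily, lay at 1.30 to 2.40 CPM at 0 h and was not called at 1.5 or 3 h by edgeR (limma on the deposited log2 values called it at 3 h), before it rose to 2.63 to 5.83 CPM at 4.5 h (log2 change 1.04, SE 0.16, adjusted p = 4.61e-06 in edgeR).

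fgf8.L, whose product supports mesoderm and posterior neural tissue in the frog, changed least of the ligands. Its levels were 41.5, 47.0 and 52.4 CPM at 0 h and 49.8, 53.0 and 71.5 CPM at 4.5 h, which overlap, with clutches D and E high at 4.5 h. The log2 change of 0.31 (SE 0.08, adjusted p = 0.000786 in edgeR) was in the same direction in all 6 clutches. fgf6.L, of the FGF4 subfamily, ran the other way, from 1.07, 3.62 and 4.81 CPM at 0 h to 0, 0.275 and 0.606 CPM at 4.5 h. Its log2 change was -3.41 (SE 0.28, adjusted p = 2.88e-10 in edgeR), and clutch D had 0 counts of it at 4.5 h, which allows up to 0.640 CPM, the value of 3 counts.

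Receptor genes rose, with 1 exception, and all 6 were called at every later time. Of all genes, 48.3%, 74.6% and 82.9% were called at these times. The genes fgfr2.L and fgfr2.S encode the 2 copies of FGF receptor 2. From an ancient doubling of its genome, X. laevis carries an L and an S copy of many genes. The letters do not give the length of a gene. fgfr2.L had levels of 16.9, 42.1 and 76.7 CPM at 0 h and 86.1, 99.7 and 145 CPM at 4.5 h, and fgfr2.S had 9.87, 36.3 and 62.9 CPM and then 74.5, 95.1 and 136 CPM. Both were without overlap between the 2 times, and most of the rise had taken place by 1.5 h, when the log2 changes were 1.13 and 1.30, compared with 1.37 (SE 0.21) and 1.67 (SE 0.25) at 4.5 h. Clutch C was the lowest at 0 h and the highest at 4.5 h for fgfr2.L. In the 4 clutches labelled stage 12.5 at 4.5 h, fgfr2.S rose by 1.07.

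fgfr4.L, a receptor gene, rose from 121, 179 and 189.8 CPM to 339, 375 and 418 CPM, with no overlap and a log2 change of 1.23 (SE 0.10, adjusted p = 1.49e-10 in edgeR). Its S copy moved less, from 184, 267 and 311 CPM to 294, 315 and 361 CPM, with a log2 change of 0.34 (SE 0.07, adjusted p = 0.000229 in edgeR) that was absent from the deposited log2 values (0.00, adjusted p = 0.946 in limma). fgfrl1.L encodes a receptor-like protein without a kinase domain. It lay at 0.329, 0.665 and 3.03 CPM at 0 h and at 17.6, 22.9 and 27.4 CPM at 4.5 h, a 21.7-fold rise (log2 change 4.44, SE 0.28, adjusted p = 4.11e-12 in edgeR).

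The exception was fgfr3.L, which fell from 13.3, 18.2 and 25.3 CPM at 0 h to 5.40, 8.76 and 11.1 CPM at 3 h, a log2 change of -1.20 (SE 0.18, adjusted p = 4.76e-06 in edgeR). At 4.5 h it stood at 6.57, 10.3 and 15.6 CPM, and its change from 0 h was -0.83 (SE 0.18, adjusted p = 0.000251 in edgeR), lower in 5 of 6 clutches. Without clutches B and C, which were at the earlier labelled stage, the change at 4.5 h was -0.49.

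Among the adaptors, which link activated receptors to Ras, frs2.L rose at every later time and reached a log2 change of 0.73 at 3 h and 0.52 at 4.5 h. Its copy frs2.S rose by 0.24 at 3 h, and at 4.5 h its change was -0.04 (SE 0.06, adjusted p = 0.591 in edgeR). frs3.S, a related adaptor, was at 0.822, 1.14 and 1.88 CPM at 0 h and rose to 2.63, 3.41 and 6.51 CPM at 4.5 h (log2 change 1.59, SE 0.27), and it was not called earlier.

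FLRT proteins carry leucine-rich repeats on the cell surface, and in Xenopus Flrt3 binds FGF receptors and raises their signalling. Both flrt2 copies rose, flrt2.L from 0.603, 1.52 and 2.59 CPM to 6.97, 10.4 and 13.9 CPM (log2 change 2.76, SE 0.24) and flrt2.S by 1.46 (SE 0.21). Both flrt3 copies fell. flrt3.L went from 189, 328 and 502 CPM to 126, 171 and 219 CPM, and flrt3.S from 126, 259 and 365 CPM to 72.2, 100.2 and 134 CPM, with log2 changes of -0.88 (SE 0.13) and -1.27 (SE 0.17) and overlapping levels. flrt1.S was not called by edgeR or DESeq2, limma on the deposited log2 values called it at 4.5 h, and its level split by clutch: at 0 h it was 10.4, 8.31 and 10.3 CPM in clutches B, C and D, 2.28 CPM in E, 0.268 CPM in F and 0 in A. No FLRT gene was called at 1.5 h in edgeR, whereas limma on the deposited log2 values called flrt3.L. In edgeR none of the 5 had an unadjusted p under 0.05, where 11070 of 20295 genes had one.

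**Figure D2:**
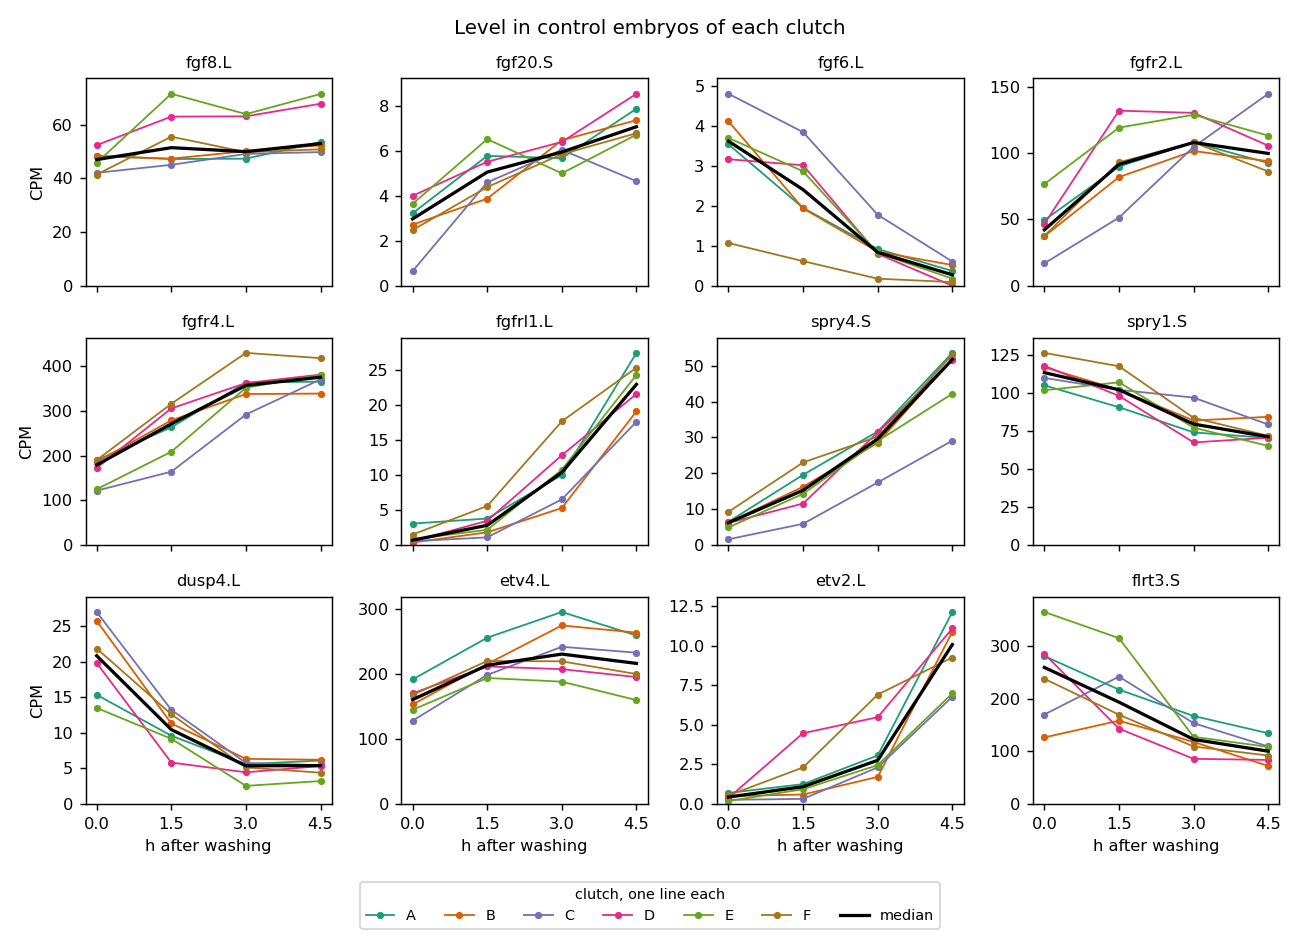
Level of 12 genes in control embryos (vertical axis, CPM from 0) by hours after washing (horizontal axis), with 1 coloured line per clutch and the median in black. The median of spry4.S goes from 6.18 to 51.8 CPM and that of fgf6.L from 3.62 to 0.275 CPM, while fgf8.L stays between 41.5 and 71.5 CPM. Clutch C begins low for fgfr2.L and spry4.S.

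Of the 10 Sprouty and Spred genes, 5 rose and 5 fell by 4.5 h, where 39.6% of all genes were higher and 43.2% lower. The 10 hold both copies of spry1, spry2, spry4 and spred2. spry4.S rose 8.63-fold, from 1.56, 6.18 and 9.23 CPM at 0 h to 29.1, 51.8 and 53.6 CPM at 4.5 h (log2 change 3.11, SE 0.16, adjusted p = 1.64e-13 in edgeR), and clutch C was lowest at both times. spry4.L rose from 7.82, 19.2 and 31.1 CPM to 33.7, 37.2 and 50.2 CPM (log2 change 1.26, SE 0.16). spry1.L was higher at 4.5 h by 0.29 (SE 0.07), in 5 of 6 clutches, whereas spry1.S fell from 102, 113.5 and 126.5 CPM to 65.2, 71.2 and 84.4 CPM (log2 change -0.61, SE 0.07, adjusted p = 6.88e-08 in edgeR).

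Both spry2 copies ended lower, spry2.L by 0.48 (SE 0.09) and spry2.S by 0.29 (SE 0.09, adjusted p = 0.00501 in edgeR), and the latter call was lost without clutch F (log2 change -0.20, adjusted p = 0.0619). Spred proteins hold back the activation of Raf by Ras. spred1.L rose by 1.41 (SE 0.15) and spred2.L by 0.67 (SE 0.08), and spred2.S fell by 0.22 (SE 0.07), a call that neither DESeq2 nor limma on the deposited log2 values made. spred3.S fell by 2.23 (SE 0.39), in 5 of 6 clutches, from levels of 0.370 to 6.13 CPM at 0 h to 0.213 to 0.833 CPM at 4.5 h.

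Among the 7 genes grouped as ERK phosphatases, 1 rose, 4 fell and 2 were not called at 4.5 h. Of all genes, 39.6% were higher and 43.2% lower at that time. dusp6.L, the cytoplasmic ERK phosphatase, rose from 15.54, 20.9 and 26.1 CPM to 25.0, 33.2 and 40.5 CPM, with a log2 change of 0.65 (SE 0.13, adjusted p = 9.55e-05 in edgeR) and a higher value in 5 of 6 clutches. dusp4.L, a nuclear phosphatase, fell from 13.5, 20.9 and 27.0 CPM to 3.22, 5.39 and 6.22 CPM (log2 change -2.00, SE 0.16), and nearly all of the fall lay before 3 h, when the change was -2.06. dusp4.S fell by 0.70 (SE 0.22), dusp7.L by 0.86 (SE 0.19) and dusp1.S by 1.45 (SE 0.09). dusp1.L and dusp5.L had changes of 0.04 (SE 0.09) and 0.11 (SE 0.09), which edgeR did not call, with adjusted p of 0.672 and 0.227.

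In the fit over 6 clutches, both PEA3 factors rose early and then levelled. etv1.S went from 176, 209 and 278 CPM at 0 h to 264, 323 and 486 CPM at 4.5 h, with log2 changes of 0.51, 0.72 and 0.72 at the 3 later times. etv4.L went from 128, 160.3 and 191 CPM at 0 h to 194, 213 and 256 CPM at 1.5 h, with log2 changes of 0.44, 0.56 and 0.45 and a higher value in all 6 clutches at 4.5 h. In the 4 clutches labelled stage 12.5, the change of etv4.L at 4.5 h was 0.28. Single clutches differed. From 1.5 to 4.5 h the change from 0 h went down in D (0.314 to 0.198), E (0.42 to 0.142) and F (0.39 to 0.251). It went up in A (0.417 to 0.436), B (0.491 to 0.783) and C (0.633 to 0.862).

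The other etv genes encode ETS factors outside that group. etv2.L, a regulator of blood vessel and blood progenitors, lay at 0.185, 0.435 and 0.695 CPM at 0 h and rose to 6.77, 10.1 and 12.1 CPM, a 23.4-fold change (log2 change 4.55, SE 0.34, adjusted p = 7.55e-11 in edgeR). The repressor genes etv6.L and etv3l.S fell by 1.54 (SE 0.15) and 1.36 (SE 0.24). etv3.L rose by 0.25 at 1.5 h and 0.16 at 3 h, whereas its change by 4.5 h was -0.11 (SE 0.07, adjusted p = 0.153 in edgeR). In limma on the deposited log2 values, etv3.L was called at 3 and 4.5 h and not at 1.5 h.

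The 9 remaining dusp genes encode phosphatases with substrates other than ERK or less certain ones. Of them 6 fell, 1 rose and 2 were not called at 4.5 h, where 43.2% of all genes were lower and 39.6% higher. dusp19.L went from 2.59, 3.95 and 6.15 CPM to 0.179, 0.309 and 0.829 CPM (log2 change -3.47, SE 0.26), and dusp23.L and dusp18.L fell by 1.89 (SE 0.21) and 1.41 (SE 0.18). dusp16.L and dusp16.S, which act on JNK and p38 kinases in mammals, fell by 0.44 and 0.70, and dusp11.L, an RNA phosphatase, by 0.17. DESeq2 did not call dusp11.L, and limma on the deposited log2 values called neither dusp11.L, dusp16.L nor, at 4.5 h, fgfr1op.L. dusp12.L rose by 0.77 (SE 0.12). All 3 fgfr1op genes fell at every later time, by 0.32 (fgfr1op.L), 1.72 (fgfr1op2.L) and 1.16 (fgfr1op2.S) at 4.5 h. Of all genes, 24.5%, 39.5% and 43.2% were lower at 1.5, 3 and 4.5 h.

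Both copies were measured for 14 genes, and in 10 of them the L and the S copy changed unequally. The test was limma on the 6 within-clutch differences between the L and the S change at 4.5 h, fitted over all 2669 such pairs of the table, of which 65.2% were called, compared with 71.4% here. The widest gaps were those of spry4, dusp1 and dusp4. The S copy of spry4 rose by 1.84 more than the L copy (SE 0.19, adjusted p = 0.000185 in limma). For dusp1 the change of the L copy was 1.49 above that of the S copy (SE 0.13, adjusted p = 8.6e-05 in limma). For dusp4 the L change minus the S change was -1.26 (SE 0.21, adjusted p = 0.00136 in limma). For spry1 and spred2 the copies were called in opposite directions by edgeR. The change of the L copy was 0.90 above that of the S copy in each (SE 0.08 and 0.13). Such opposite calls occurred in 2 of 14 genes here and in 13.3% of all pairs, and that of spred2 rests on edgeR, since DESeq2 and limma on the deposited log2 values did not call spred2.S.

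fgfr4 (0.89, SE 0.11), flrt2 (1.25, SE 0.29), frs2 (0.56, SE 0.11), flrt3 (0.36, SE 0.09) and dusp16 (0.26, SE 0.08) were called as well. In each, the change of the L copy was above that of the S copy, which says nothing of their levels. Both copies of flrt3 and of dusp16 fell, the L copy less. fgfr2 (-0.33, adjusted p = 0.11 in limma), fgfr1op2 (-0.51, adjusted p = 0.0639), spry2 (-0.18, adjusted p = 0.0896) and dusp11 (-0.06, adjusted p = 0.512) were not called. How reads that match both copies were assigned is not given in the sources used here, so values of near-identical copies are uncertain.

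**Figure D3:**
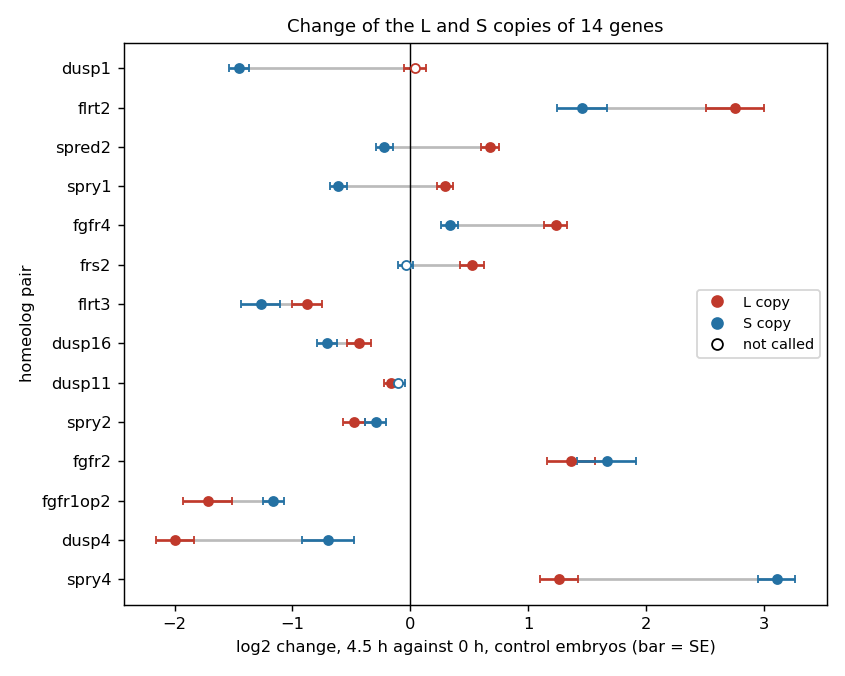
Log2 change from 0 to 4.5 h in control embryos (horizontal axis, bars are standard errors) of the L copy (red) and the S copy (blue) of 14 genes, with open circles for copies not called. The copies of spry1 and spred2 lie on opposite sides of 0, and those of spry4 stand at 1.26 and 3.11.

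Genes of the pathway outside the naming rule were described from 2 lists. Both were chosen with the general results of these data known, so their counts are a description and not a test. The signal relay list held genes of Grb2, Sos, Ras, Raf, MEK and ERK, and also gab1, gab2, ptpn11, cbl, ksr1, plcg1, klb, rps6ka1 and rps6ka3. Its counts are therefore not those of the chain from Grb2 to ERK alone. It had 30 measured copies of 19 genes. At 4.5 h 5 copies were higher and 21 lower, where 39.6% of all genes were higher and 43.2% lower. Their median log2 change was -0.70, against -0.08 over all genes. sos1.L, a Ras activator, fell from 30.0, 36.7 and 54.7 CPM to 5.13, 7.04 and 12.2 CPM (log2 change -2.28, SE 0.13). klb.L, a co-receptor of endocrine FGFs in mammals, was at 0 to 0.226 CPM at 0 h and at 26.8, 40.8 and 62.7 CPM at 4.5 h.

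The list of FGF and ERK target genes had 24 measured copies of 14 genes. Because of how it was chosen, the shares over all genes beside it do not test FGF and ERK targets as a class. At 1.5 h 15 of the 24 copies were higher and none lower, where 23.8% of all genes were higher and 24.5% lower. At 4.5 h 16 were higher and 3 lower, where 39.6% and 43.2% of all genes were, and the median log2 change was 2.43, against -0.08 over all genes. The presomitic mesoderm genes tbx6.S, msgn1.S and msgn1.L rose by 5.40, 5.47 and 5.03, and the caudal gene cdx1.L by 4.12 (SE 0.25). tbx6.S went from 0.165, 0.756 and 1.34 CPM to 16.3, 35.4 and 42.2 CPM.

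Few FGF signalling genes were called with treatment, as were few of all genes. With RA against control, 2 of 52 members tested (3.85%) were called at 0 h, both higher, where 0.537% of all genes were called. The same 2 genes, dusp6.L and dusp5.L, were the members called 1.5 h later among 53 tested (3.77%), where 0.655% of all genes were called. DESeq2 called these 2 at both times, and also dusp4.L at 0 h and flrt3.S at 1.5 h. At 3 h 0 of 52 were called by edgeR, with 0.16% of all genes, and at 4.5 h 0 of 50, with 0%. At those times 10 and 5 members had an unadjusted p under 0.05 in edgeR, where 1322 of 19400 and 1458 of 19750 genes had one. DESeq2 called 2 members (dusp6.L and dusp5.L) at 3 h and 0 at 4.5 h. Members too low to be tested were etv2.L at 0 h, dusp19.L at 3 h, and dusp19.L, fgf6.L and spred3.S at 4.5 h.

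dusp6.L (gene model Xelaev18017457m) is an ERK phosphatase whose expression follows FGF signalling in vertebrate embryos. Its levels at 0 h were 15.54, 20.9 and 26.1 CPM in control, 18.8, 27.1 and 38.8 CPM with RA, 15.48, 19.5 and 21.5 CPM with DEAB and 15.7, 18.8 and 22.8 CPM with ethanol. The groups overlapped, but within clutches RA was above control in 6 of 6. The log2 change with RA was 0.37 (SE 0.07, adjusted p = 0.0286 in edgeR).

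At 1.5 h dusp6.L stood at 19.2, 29.0 and 30.8 CPM in control, 20.02, 40.4 and 50.1 CPM with RA and 22.4, 26.1 and 28.4 CPM with DEAB. RA again exceeded control in 6 of 6 clutches, least in B, and the log2 change was 0.50 (SE 0.11, adjusted p = 0.0251 in edgeR). At 3 h control was 25.6, 28.1 and 32.8 CPM and RA 29.5, 38.6 and 57.7 CPM, with clutches C, D and E high. The change of 0.50 (SE 0.10) did not pass the test (adjusted p = 0.0528 in edgeR) although it was positive in 6 of 6 clutches, and at 4.5 h it was 0.09 (SE 0.09, adjusted p = 0.877).

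dusp5.L (gene model Xelaev18034222m), a nuclear ERK phosphatase, showed a like pattern. At 0 h it lay at 49.6, 89.0 and 95.6 CPM in control, 66.9, 105.3 and 135 CPM with RA, 53.3, 90.0 and 102 CPM with DEAB and 45.8, 78.6 and 92.0 CPM with ethanol. Clutch B was the lowest in each group, and RA was above control in 6 of 6 clutches. The log2 change with RA was 0.32 (SE 0.05, adjusted p = 0.00548 in edgeR) at 0 h, and 0.33 (SE 0.07, adjusted p = 0.0182) 1.5 h later. It was 0.34 (SE 0.08, adjusted p = 0.0926) at 3 h and 0.11 (SE 0.07, adjusted p = 0.796) at 4.5 h.

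These calls rest on all 6 clutches to differing degrees. For dusp5.L at 0 h, the call was lost without clutch D (adjusted p = 0.0531 in edgeR) and held without any other single clutch. For dusp6.L at 0 h it was lost without A, D, E or F, with an adjusted p of up to 0.124, and at 1.5 h both genes lost it without C, D, E or F, with an adjusted p of up to 0.217 for dusp6.L and 0.136 for dusp5.L. The log2 changes themselves kept their sign and stayed between 0.28 and 0.57. Without the clutch block none of these calls was made. Of the 4, limma on the deposited log2 values made that of dusp5.L at 0 h (adjusted p = 0.0206) and not that of dusp6.L at 0 h (adjusted p = 0.0898), nor those of dusp6.L and dusp5.L at 1.5 h (adjusted p of 0.147 and 0.133).

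**Figure D4:**
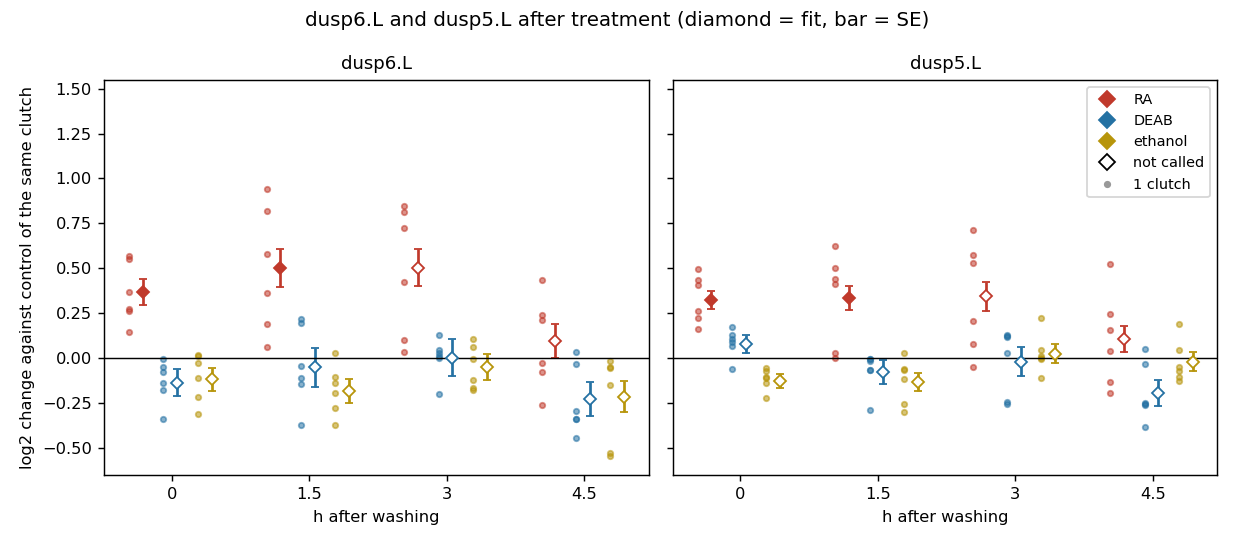
Log2 change against control of dusp6.L and dusp5.L by hours after washing (horizontal axis), for RA (red), DEAB (blue) and ethanol (yellow). Diamonds are fitted changes with standard errors, filled where called, and small points are the 6 clutches. RA lies above 0 in all 6 clutches at 0 and 1.5 h for both genes, with fitted changes of 0.32 to 0.50.

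With DEAB against control, 3 of 52 members (5.77%) were called at 0 h, all higher, where 2.37% of all genes were called. DESeq2 called 6 at 0 h, these 3 and fgfr4.L, fgfr4.S and spry1.S. At 1.5, 3 and 4.5 h edgeR called 0 of 53, 0 of 52 and 0 of 50 (all genes 0%, 0.0361% and 0.263%). At an unadjusted p under 0.05 in edgeR there were 7, 6 and 12 members. Over all genes these numbers were 1514 of 19543, 1915 of 19400 and 2077 of 19750. DESeq2 called 0, 0 and 1 member, the last being fgfr3.L. This comparison uses the same control libraries as that of RA.

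The 3 genes higher with DEAB at 0 h encode inhibitors of ERK signalling. dusp4.L was at 13.5, 20.9 and 27.0 CPM in control and 18.4, 28.9 and 31.4 CPM with DEAB (log2 change 0.37, SE 0.07, adjusted p = 0.0341 in edgeR). It was also above control in 6 of 6 clutches with RA (0.30, SE 0.07, adjusted p = 0.0697 in edgeR, while DESeq2 called it) and in 5 of 6 with ethanol (0.21, SE 0.07, adjusted p = 0.117). dusp7.L was at 6.35, 13.0 and 21.2 CPM in control and 8.18, 16.4 and 28.8 CPM with DEAB (log2 change 0.36, SE 0.08, adjusted p = 0.0367 in edgeR), while with RA its change was 0.03 (95% interval -0.12 to 0.18).

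spred2.S was at 24.1, 27.6 and 34.9 CPM in control and 27.5, 32.6 and 37.6 CPM with DEAB, a log2 change of 0.19 (SE 0.05, adjusted p = 0.0444 in edgeR). With RA it changed by 0.15 (SE 0.05, adjusted p = 0.106) and with ethanol by 0.16 (SE 0.05, adjusted p = 0.0654), in 6 of 6 clutches each. All 3 DEAB calls were lost without clutch A, D, E or F (adjusted p up to 0.229 in edgeR) and were not made in the deposited log2 values. For dusp6.L and dusp5.L, DEAB gave changes of -0.14 (95% interval -0.28 to 0.01) and 0.08 (95% interval -0.02 to 0.18) at 0 h.

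RA and DEAB were also compared with each other, which does not use the control libraries for its estimate. At 0 h 2 of 52 members were called (3.85%, against 0.464% of all genes) and at 1.5 h 2 of 53 (3.77%, against 1.04%). At 3 h 3 of 52 were called (5.77%, against 0.969%) and at 4.5 h 2 of 50 (4%, against 0.815%). dusp6.L was higher with RA than with DEAB by 0.50 (SE 0.07, adjusted p = 0.00162 in edgeR) at 0 h, in 6 of 6 clutches, and by 0.55 (SE 0.10, adjusted p = 0.00569) and 0.50 (SE 0.10, adjusted p = 0.0172) at 1.5 and 3 h, in 5 of 6. dusp5.L was higher by 0.25 (SE 0.05, adjusted p = 0.0274) at 0 h, 0.41 (SE 0.07, adjusted p = 0.00108) at 1.5 h and 0.36 (SE 0.08, adjusted p = 0.0265) at 3 h. At 4.5 h the differences were 0.32 (SE 0.09, adjusted p = 0.169) for dusp6.L and 0.30 (SE 0.07, adjusted p = 0.0552) for dusp5.L. DESeq2 made all of these calls and also called dusp5.L at 4.5 h and etv1.S at 1.5 h. The call of dusp6.L at 1.5 h was lost without E or F (adjusted p up to 0.0722 in edgeR) and that at 3 h without C, D, E or F (up to 0.111), and the call of dusp5.L at 0 h was lost without each clutch but C (up to 0.222) and that at 3 h without C, D, E or F (up to 0.124). Of the 20 gastrula markers, the epidermal gene krt12.L was the one called in these comparisons up to 3 h, higher with RA by 1.43, 0.87 and 0.47 at 0, 1.5 and 3 h, and its part in the dusp differences was not tested.

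The call of dusp6.L at 0 h and that of dusp5.L at 1.5 h held when any 1 clutch was left out, with adjusted p of 0.00137 to 0.0227 and 0.000178 to 0.014 in edgeR. They are 2 of the 16 treatment calls, and the other 14 were lost without 1 or more clutches. Both were also made by limma on the deposited log2 values, with adjusted p of 0.0111 and 0.0323. The other 7 calls of RA against DEAB were not made by limma on those values (adjusted p of 0.0556 to 0.303). etv1.S, the PEA3 factor, was higher with RA than with DEAB at 3 h by 0.21 (SE 0.05, adjusted p = 0.0465 in edgeR) in 6 of 6 clutches, with levels of 276, 374 and 505 CPM against 243, 331 and 464 CPM. This call held only without clutch C and was lost without each of the others, with an adjusted p of up to 0.242.

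At 4.5 h the widest treatment difference was that of fgfr3.L (gene model Xelaev18005030m), with 7.32, 12.8 and 15.47 CPM with RA, 3.88, 6.17 and 9.02 CPM with DEAB, 6.57, 10.3 and 15.6 CPM in control and 6.995, 9.61 and 15.6 CPM with ethanol. RA exceeded DEAB in 6 of 6 clutches by a log2 difference of 0.93 (SE 0.17, adjusted p = 0.00775 in edgeR), and the call was lost without clutch E (adjusted p = 0.0799) or F (adjusted p = 0.0508) and in limma on the deposited log2 values (adjusted p = 0.068). Against control, DEAB was lower in 5 of 6 clutches by -0.78 (SE 0.17, adjusted p = 0.0569) and RA differed by 0.15 (95% interval -0.16 to 0.47). In the same libraries the epidermal marker krt12.L, at 4.5 h, was lower with DEAB than in control by -0.36 (SE 0.07, adjusted p = 0.031 in edgeR). It was the 1 called of 20 gastrula markers in that comparison, and in RA against DEAB the called markers were the mesodermal t.S and t.L, lower with RA by -0.28 and -0.26. Their part in the fgfr3.L difference was not tested.

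dusp7.L was lower with RA than with DEAB at 4.5 h, with 3.68, 5.88 and 8.31 CPM against 6.03, 7.92 and 12.4 CPM. The log2 difference was -0.56 (SE 0.12, adjusted p = 0.0333 in edgeR), in 6 of 6 clutches, and it was lost without A, D, E or F (adjusted p up to 0.17) and in limma on the deposited log2 values (adjusted p = 0.0556). Against control, RA changed it by -0.30 (SE 0.13, adjusted p = 0.614) and DEAB by 0.26 (SE 0.12, adjusted p = 0.452).

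**Figure D5:**
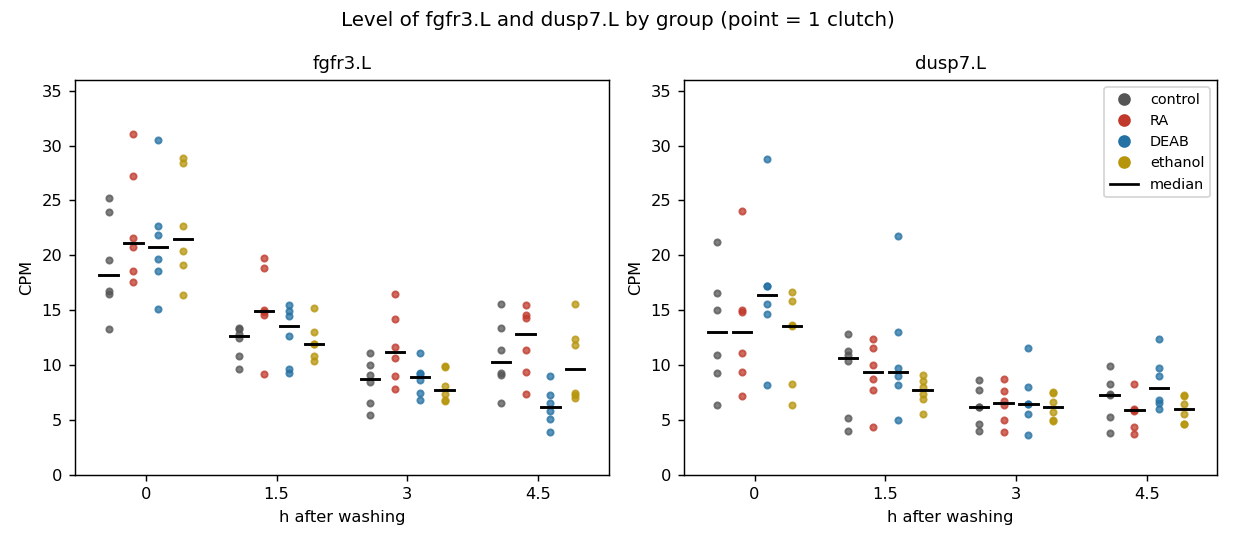
Level of fgfr3.L and dusp7.L (vertical axis, CPM from 0) by hours after washing (horizontal axis) in control, RA, DEAB and ethanol embryos. Each point is 1 clutch and each bar a median. At 4.5 h the DEAB median of fgfr3.L is 6.17 CPM and the RA median 12.8 CPM, and for dusp7.L they are 7.92 and 5.88 CPM.

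With ethanol against control edgeR called no member at any time, of 52, 53, 51 and 50 tested, where 2.89%, 0.065%, 0% and 0.00531% of all genes were called. The members with an unadjusted p under 0.05 in edgeR numbered 13, 15, 3 and 3. Over all genes these numbers were 4146 of 18563, 1700 of 18473, 901 of 18642 and 1208 of 18837. DESeq2 called frs2.S at 0 h and 0 members later, and for part of the members it gave no adjusted p. In edgeR frs2.S differed from control by -0.16 (SE 0.04, adjusted p = 0.0636) at 0 h. Without clutch B, 7 member calls were made over the 4 times.

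Whether the effects of RA and DEAB on a gene differed between times was asked of the interaction of treatment and time over 72 libraries. edgeR called 0 of 53 members, where 0.00453% of all genes were called. Before adjustment over all genes, edgeR gave fgfr3.L a p of 0.00333 and fgfr1op2.L a p of 0.0221, the only members under 0.05. Of all genes, 270 of 22092 were under 0.05. The calls of dusp6.L and dusp5.L at 0 and 1.5 h and not at 4.5 h therefore do not show that their response to RA differed between these times.

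Few copies of the pathway lists were called with treatment. Of the 30 signal relay copies, edgeR called none in any treatment comparison. Those with an unadjusted p under 0.05 in edgeR numbered 0 to 11. The 11, of 29 tested, were with DEAB at 0 h, where 4330 of 19376 genes had one. DESeq2 called at most 1 copy in a comparison, among them rps6ka3.L with DEAB at 0 h. Target copies with an unadjusted p under 0.05 in edgeR numbered 0 (RA against control, 4.5 h) to 12. The 12, of 23 tested, were with RA at 0 h, where 3787 of 19376 genes had one. With ethanol at 3 h 10 of 24 had one, where 901 of 18642 genes did. Among the target genes, chosen here after their values were seen, cdx2.S and cdx4.L were lower with DEAB at 0 h by -0.81 and -0.87, and DESeq2 called neither. They were the 2 called of 23 tested, where 2.37% of all genes were called. cdx4.S was higher with RA than with DEAB by 0.43 at 1.5 h and 0.48 at 3 h, and t.S and t.L, the copies of tbxt, were the lower ones at 4.5 h. These were 1, 1 and 2 of 24 tested copies, where 1.04%, 0.969% and 0.815% of all genes were called. ier2.L was lower with ethanol at 0 h by -0.24, the 1 called of 22 tested, where 2.89% of all genes were called. DESeq2 also called cdx1.S with RA at 0 h and t.L with DEAB at 4.5 h. At 1.5 h it called myc.L with RA, against control and against DEAB, and at 3 h cdx4.L in RA against DEAB.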

How the data were processed

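RNA was extracted from pools of whole embryos. The authors mapped the reads with STAR (genome X. laevis 9.1) and used verse to obtain gene counts, which they deposited unnormalized. The strand setting is not given in the sources used here. The authors also deposited log2 values of 16322 genes for the 72 libraries other than ethanol, which had been through the regularized log of DESeq2, removal of batch effects with ComBat, exclusion of genes of low expression, and quantile normalization. These served for gene symbols and as an alternative. The columns that belonged to no sample numbered 0.

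Counts were tested in R 4.3.3 with edgeR 4.0.16 (quasi-likelihood test, TMM scaling, filterByExpr, clutch as a block, Benjamini-Hochberg adjustment over all genes, threshold 0.05): time in 24 control libraries, treatments in the 18 libraries of control, RA and DEAB at each time, ethanol in 12, and the interaction in 72. Each SE is the absolute log2 change divided by the square root of F. Within-clutch changes are differences of log2 CPM with a prior count of 2. Copies were compared with limma 3.58.1. The procedure was run on simulated data in which few genes changed, by more than any member called with treatment here. That run does not cover data in which most genes change, as over time, or changes as small as those with treatment. The smallest library held 5528562 counts, and CPM of genes with few counts are the least precise. Floors from 3 counts cover counting error only.

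Clutches pair the samples because all samples of a clutch come from 1 female. In 144 of the same-clutch pairs of libraries, and not in all such pairs, the correlation of deviations from their group means was examined (0.495 to 0.868). Of 240 library pairs within groups, 0 were identical, and each library counted as 1 replicate.

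Genes named are fgf8, fgf20, fgfr2, fgfr3, fgfr4, spry1, spry2, spry4, dusp6, etv1, etv4 and flrt3 copies, the 15 members with the largest change at 4.5 h in a single direction in all 6 clutches, every member called in a treatment comparison, and at most 6 listed pathway genes with the largest change over time. Other members are named where a group is described and were chosen after their values were seen. The members and lists were chosen with earlier results of these data known. Alternatives were DESeq2 1.42.0, its size factors, no replicate block, no filter on low counts, limma on the deposited log2 values, a single fit over all times, a fit of 24 libraries for ethanol, labelled stage in place of time, and leaving out each clutch. The 4 clutches labelled stage 12.5 at 4.5 h and the test of copies were added after seeing the data. Some genes of the pathway and response lists are not reported here.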

Additional observations from a re-analysis of the deposited data

Results flagged for a closer look

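Of 47 comparisons of named genes examined, 4 were flagged for 1 clutch far from the other 5, and chance flags about 1 in 20. All 4 were within-clutch changes from 0 to 4.5 h in control embryos, and not all of the 47 comparisons were of this kind. For spry4.S, clutch C changed by 4.081, with the next clutch at 3.07. For fgf20.S, clutch C changed by 2.555, with the next at 1.394. For fgfr2.L, clutch C changed by 3.086, with the next at 1.328. For dusp19.L, clutch B changed by -2.589, with the next at -2.982. Clutch C was the lowest of the 6 at 0 h for spry4.S, fgf20.S and fgfr2.L, and clutches B and C were labelled stage 12 at 4.5 h and the others stage 12.5. The part of labelled stage in these values was not tested.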

How the results depend on the processing

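The 403 alternative values of the changes at 4.5 h cover the genes set to be named and not all members. Those genes include the 15 members with the largest change at 4.5 h in a single direction in all 6 clutches. Of the 403 values, 401 kept their direction and call. The others were fgfr4.S in limma on the deposited log2 values and spry2.S without clutch F. Among the other members, the calls of dusp11.L and spred2.S at 4.5 h were not made by DESeq2, and those of dusp11.L, dusp16.L, fgfr1op.L and spred2.S not by limma on the deposited log2 values. Of 192 alternative values of single treatment calls, 97 kept the call and 95 kept the direction but lost the call. No value changed sign. The 16 treatment calls all needed the replicate block: with no replicate block the member calls fell to 0 for RA, 0 for DEAB and 0 for RA against DEAB, and at 1.5 h in control to 19 from 29. Member calls over 4 times with RA against control (4) numbered 8 with DESeq2, 9 with no filter on low counts, 1 with limma on the deposited log2 values and 0 with a single fit over all time points, and 0 to 6 when each clutch was left out. With DEAB against control (3) they numbered 7, 6, 0 and 0 under those settings, and 0 to 11 without single clutches, the highest without C. RA against DEAB (9) gave 2 with limma, 2 with the single fit, and 2 to 8 without single clutches. Ethanol (0) gave 1 with DESeq2, 2 with no filter, 3 with a fit of 24 libraries, and 0 to 7 without single clutches, the highest without B. Calls over time without single clutches ranged from 25 to 30, 38 to 43 and 44 to 48 at 1.5, 3 and 4.5 h, and in the 4 clutches labelled stage 12.5 they were 29, 44 and 47. Labelled stage 12 against 10.25 gave 44. On the deposited log2 scale changes over time were smaller, such as 2.06 for etv2.L, and the cause was not tested. The median log2 change of all genes at 4.5 h was -0.08 in edgeR, 0.05 in edgeR with no filter on low counts and 0.26 in DESeq2, and the cause was not tested. Low counts limit fgf6.L, dusp19.L, spred3.S, flrt1.S and frs3.S, each with a library or more at 0 counts. They also limit the size of the rises of etv2.L and fgfrl1.L, whose lowest libraries held 2 and 4 counts.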

Other observations

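The levels of 2 members are given by clutch, as a description chosen after the values were seen. flrt1.S, a gene of the FLRT membrane proteins, had a median over the 16 libraries of a clutch of 0.196 CPM in A, 7.23 CPM in B, 8.11 CPM in C, 7.98 CPM in D, 2.50 CPM in E and 0.382 CPM in F. Its highest library in A and F was at 0.741 and 0.990 CPM, below the lowest library in E (1.33 CPM), B (4.42 CPM), C (4.32 CPM) and D (3.99 CPM). spred3.S, a Spred inhibitor, had medians of 2.87, 2.10 and 1.93 CPM in A, B and C, 0.349 and 0.495 CPM in D and E, and 2.32 CPM in F. Its clutch ranges overlapped. The lowest libraries in A, B, C and F (0.820, 0.518, 0.606 and 0.792 CPM) lay below the highest in E (0.912 CPM). Those in B and C also lay below the highest in D (0.782 CPM). The low clutches of the 2 genes were not the same.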
